A study of Mus musculus with 14 samples.

Results

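Clone K is 1 of 6 clonal lines, each grown from a single sorted cell of the metastatic mouse mammary tumour line 4T1, whose genomic DNA was bisulfite converted and sequenced. Its 2 libraries, out of 14 in the series, were set against the 10 libraries of clones E, I, L, P and T. Clone K was labelled non-intravasating, which means that it did not enter the blood vessels when 23 clones were assessed as a pool, and so were clones I, L and P, whereas clones E and T were labelled intravasating. All 6 lines were untreated cultures in the same medium, each line is 1 clone, and the parental 4T1 libraries were not analysed here. The tables held 1 methylation level per clone, a fraction between 0 (unmethylated) and 1 (fully methylated), for 21965 gene promoters and for 97247 hypomethylated regions (HMRs, stretches of low methylation) of the 19 autosomes. The 2 rounds of each clone had no separate values and no read counts came with the levels, so that neither the error nor the depth of a level in clone K is known.

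Regions were picked by their levels: clone K had to lie above, or below, all 5 other clones. The gap is the distance between clone K and the nearest other clone, and a gap of at least 0.2 was taken as standing apart. By this rule 14 of 21965 promoters stood apart above (0.0637%) and 3 below (0.0137%), against 256 of 97247 autosomal HMRs above (0.263%) and 98 below (0.101%). The values of regions chosen in this way describe them. The p-values given for some of them come from a model across all regions and, since the same levels chose the regions, are no independent support.

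In mammals DNA methylation is added mainly to cytosines that precede guanine (CpG). Promoters rich in CpG, which serve most broadly used genes, are usually unmethylated, while promoters poor in CpG, such as those of olfactory receptor genes and many germ-cell genes, are often methylated in somatic cells. A clone that grows from 1 cell inherits the methylation pattern of that cell, and later divisions can alter it.

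The sequences around the start of 4 genes show the kinds of promoter that set clone K apart. They run from 250 bases before to 50 bases after the start, are credited to RefSeq (GRCm38.p6) and carry CpG in capitals. The sources used here do not state the boundaries of the deposited promoters. Psg29 had a level of 0.667 in clone K with 0 CpG in this window. Its level therefore cannot come from CpG of the sequence shown, and deposited promoters need not match these windows. Psg29 encodes a pregnancy-specific glycoprotein (chr7:17203227-17203526, plus strand, 0 CpG) and Clec4g a C-type lectin receptor (chr8:3720602-3720901, minus strand, 4 CpG), and clone K was the highest clone at both. Vmn1r119 encodes a pheromone receptor of the vomeronasal organ (chr7:21012406-21012705, minus strand, 2 CpG) and Rasef a Ras-like GTPase with a calcium-binding domain (chr4:73790553-73790852, minus strand, 38 CpG), and clone K was the lowest clone at both.
Psg29: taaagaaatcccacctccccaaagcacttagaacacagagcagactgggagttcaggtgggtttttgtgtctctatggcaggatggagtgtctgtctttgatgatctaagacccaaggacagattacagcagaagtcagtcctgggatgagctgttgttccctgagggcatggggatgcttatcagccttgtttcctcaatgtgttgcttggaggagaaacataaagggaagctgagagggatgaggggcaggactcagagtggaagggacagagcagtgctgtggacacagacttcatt
Clec4g: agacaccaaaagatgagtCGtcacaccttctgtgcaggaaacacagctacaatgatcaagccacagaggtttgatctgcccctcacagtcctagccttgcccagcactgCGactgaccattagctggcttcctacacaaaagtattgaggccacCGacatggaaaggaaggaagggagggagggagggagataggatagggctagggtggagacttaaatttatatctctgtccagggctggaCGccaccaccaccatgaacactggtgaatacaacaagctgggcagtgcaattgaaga
Vmn1r119: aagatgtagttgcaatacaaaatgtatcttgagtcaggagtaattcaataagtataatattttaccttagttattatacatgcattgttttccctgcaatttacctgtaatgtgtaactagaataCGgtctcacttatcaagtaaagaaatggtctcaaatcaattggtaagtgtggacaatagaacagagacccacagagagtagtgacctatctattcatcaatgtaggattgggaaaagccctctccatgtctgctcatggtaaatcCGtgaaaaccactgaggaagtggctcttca
Rasef: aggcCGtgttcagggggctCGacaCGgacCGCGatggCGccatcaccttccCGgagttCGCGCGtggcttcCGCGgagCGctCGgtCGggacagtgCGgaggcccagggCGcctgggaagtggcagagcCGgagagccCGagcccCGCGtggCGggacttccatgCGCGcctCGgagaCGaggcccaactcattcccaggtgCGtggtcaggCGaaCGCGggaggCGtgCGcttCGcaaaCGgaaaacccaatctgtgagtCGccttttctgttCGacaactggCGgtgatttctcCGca

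MicroRNA genes were at both ends as well: clone K stood apart above at the promoters of Mir743 (X chromosome) and Mir344-2 (chromosome 7), and it was the lowest clone at Mir463 (X chromosome). The mature products are given from RefSeq (GRCm38.p6) with the seed, bases 2 to 8, in capitals. No seed was shared among these 6 products.
mmu-miR-743a-3p: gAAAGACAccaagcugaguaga
mmu-miR-743a-5p: uAUUCAGAuuggugccugucau
mmu-miR-344-3p: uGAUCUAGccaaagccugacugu
mmu-miR-344-5p: aGUCAGGCuccuggcuagauuccagg
mmu-miR-463-3p: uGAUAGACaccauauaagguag
mmu-miR-463-5p: uACCUAAUuuguuguccaucau

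The widest gap was at Gm14351, a predicted gene on the X chromosome, where the promoter level was 1 in clone K, while clone I had 0.250 and clones E, L, P and T had 0. Mageb5, an X-linked gene of the MAGE family whose members are mostly silent outside the germ line, had a promoter level of 0.875 in clone K, against 0.5, 0.333, 0.478, 0.429 and 0.1 in clones E, I, L, P and T. Thus the level of clone K was high at both, and the other clones reached at most 0.5. Without read counts it is not known how many observations stand behind such levels, and few reads could also give simple fractions. Slxl1, an X-linked gene of developing sperm, was at 1 in clone K, against 0.714, 0.667, 0.5, 0.364 and 0.250 in clones E, I, L, P and T. Mir743 was at 0.909 in clone K and at 0.550, 0.250, 0.583, 0.353 and 0.364 in clones E, I, L, P and T. Gm14525 was the fifth X-linked promoter among the 14, at 0.769 in clone K and between 0.241 and 0.476 in the others. Of the 14 promoters that stood apart above, 5 (35.7%) were X-linked, against 4.17% of all promoters. At the smaller gap of 0.1, 12 of the 139 promoters above were X-linked (8.63%). Above and below together, the X-linked share was 13.5% in clone K, against 14.7%, 12.4%, 8.07%, 19.4% and 10.4% in clones E, I, L, P and T.

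The autosomal promoters above lay mostly at intermediate levels in clone K and at low levels elsewhere. Psg29 was at 0.667 in clone K, against 0.323, 0.111, 0.2, 0.394 and 0.294 in clones E, I, L, P and T. Clec4g was at 0.592 in clone K, against 0.384, 0.355, 0.363, 0.366 and 0.293 in clones E, I, L, P and T, so that the others lay close together (0.352 ± 0.0349, SD, n = 5) and clone K stood 0.208 above the nearest. Mir344-2 was likewise at 0.656 in clone K, against 0.415, 0.421, 0.261, 0.419 and 0.431 in clones E, I, L, P and T. Speer1-ps1, a pseudogene of a family with members made in the testis, was at 0.667 in clone K and at most at 0.333 in another clone. Olfr699 and Olfr502, olfactory receptor genes of chromosome 7, were at 0.375 and 0.702 in clone K, and the highest other levels were 0.128 and 0.5. The vomeronasal receptor gene Vmn1r2 was at 0.4 in clone K and at 0 to 0.167 in the others. F830016B08Rik and Gm5800, with no role given here, completed the set at 0.636 and 0.327 in clone K, against highest other levels of 0.412 and 0.125.

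Below all other clones stood Vmn1r119, at 0 in clone K against 0.250, 0.385, 0.273, 0.286 and 0.250 in clones E, I, L, P and T. Gm382, a predicted gene on the X chromosome, was at 0.222 in clone K, against 0.889, 0.786, 0.455, 0.750 and 0.727 in clones E, I, L, P and T. Without clone L, the nearest clone, the Gm382 gap of 0.232 was 0.505. D830030K20Rik was at 0 in clone K and between 0.2 and 0.375 in the others, exactly at the gap of 0.2. Just outside the limits were the vomeronasal receptor genes Vmn1r219 (gap 0.195 above) and Vmn1r46 (gap 0.197 below), and just inside was Olfr502 (gap 0.202 above).

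Rasef, the gene with 38 CpG around its start, was at 0.117 in clone K, against 0.407, 0.597, 0.332, 0.393 and 0.290 in clones E, I, L, P and T (0.404 ± 0.117, SD, n = 5). No other clone came within 0.174 of clone K. Other promoters with clone K lowest were those of Mup12 (a major urinary protein), at 0 in clone K and 0.194 to 0.346 in the others, and Mir463, at 0.2 in clone K and 0.385 to 0.750 in the others. Akap4, an anchoring protein of the sperm tail, was at 0.250 in clone K and in a narrow range of 0.419 to 0.480 in the others. Ifna7, an interferon alpha gene, was at 0.203 in clone K and 0.371 to 0.533 in the others. Vmn1r114 was at 0.143 in clone K and at 0.333 or above in the others. Skint7, of a family of immunoglobulin-like genes of skin and thymus, was the highest of the low set, at 0.643 in clone K and 0.8 to 0.929 in the others.

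**Figure D1:**
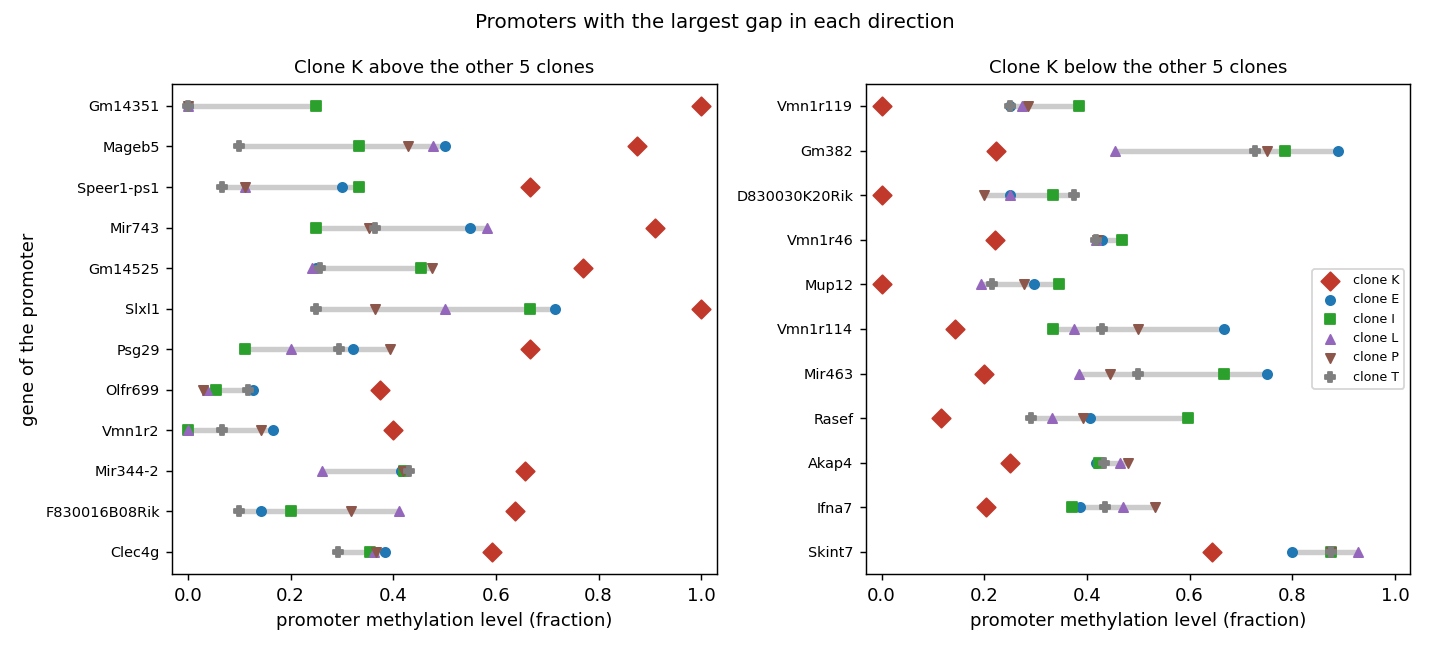
Promoter methylation level (fraction, x axis) of every clone at promoters with the largest gap above (left) and below (right), 1 row per gene. Diamonds are clone K, other symbols the other 5 clones, and the grey bar spans those 5. Clone K lies outside the bar in every row by the way the rows were chosen, from 0.750 at Gm14351 to 0.208 at Clec4g above, and from 0.250 at Vmn1r119 to 0.157 at Skint7 below.

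At the smaller gap of 0.1, clone K stood above at 139 promoters (0.633%) and below at 39 (0.178%). Among the 178, 46 (25.8%) were on chromosome 7, and among the promoters that stood apart by 0.1 in clones E, I, L, P and T the share on chromosome 7 was 10.8%, 15.2%, 9.39%, 8.96% and 9.64%. The excess was in the upward direction, with 42 of 139 promoters (30.2%) on chromosome 7 above and 4 of 39 (10.3%) below, against 8.78% of all promoters. Olfactory and vomeronasal receptor genes made up 51 of the 139 (36.7%), against 6.18% of all promoters, but the share in clone E was close to this (43 of 134, 32.1%). On chromosome 7, 24 of 340 receptor promoters (7.06%) and 18 of 1588 other promoters (1.13%) stood above by 0.1. On the other chromosomes the shares were 27 of 1038 (2.60%) and 70 of 18999 (0.368%), so that chromosome 7 was ahead in both classes. None of these differences was tested, since the promoters were picked by the same levels.

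The 18 other genes of chromosome 7 that stood above by 0.1 were named after their values were seen. They included Adm, the vasoactive peptide adrenomedullin, at 0.882 in clone K against 0.596, 0.706, 0.712, 0.710 and 0.718 in clones E, I, L, P and T. Arrdc4, an arrestin-domain protein, was at 0.358 in clone K and at 0.124 to 0.198 in the others. Adam8, a membrane metalloprotease that sheds cell-surface proteins, was at 0.545 in clone K and at 0.333 to 0.388 in the others. A second pregnancy-specific glycoprotein gene, Psg26, was at 0.464 in clone K and at 0.141 to 0.333 in the others. Nlrp2, an innate-immunity family member used in the oocyte and early embryo, was at 0.863 in clone K and at 0.518 to 0.706 in the others. Slc8a2, a sodium-calcium exchanger, was at 0.665 in clone K and at 0.467 to 0.546 in the others.

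Promoters that stood apart were mostly poor in CpG in the 300 bases around the gene start, which need not be the deposited promoter. This held more for those above than for those below. Over 109 of the 139 promoters above that could be matched to a start-site sequence, outside microRNA genes and chromosome 18, the median was 2 CpG in 300 bases, and 67 (61.5%) held 2 or fewer. For 31 of the promoters below the median was 3, against 14 over all 16824 matched promoters, of which 16.0% held 2 or fewer. This was not particular to clone K: promoters that stood apart by 0.1 in clones E, I and T had medians of 2, 2.5 and 4. The upper quartile in clone K was 4 CpG above and 14 below. Promoters with 8 or more CpG were 10 of the 109 above and 10 of the 31 below, so a larger part of those below. Above were Abcb9, a lysosomal peptide transporter, at 0.656 in clone K and 0.305 to 0.490 in the others, and Kalrn, a guanine-nucleotide exchange factor, at 0.768 in clone K and 0.532 to 0.652 in the others. Below was Xk, the X-linked membrane protein that pairs with the Kell blood group protein, at 0.295 in clone K and 0.423 to 0.876 in the others. Without clone E, the nearest clone, the Kalrn gap of 0.117 was 0.186, and without clone I the Xk gap of 0.128 was 0.228.

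Clone K was also the lowest clone at other promoters with 8 or more CpG. Shisa2, an antagonist of Wnt and FGF receptors, was at 0.290 in clone K and 0.405 to 0.579 in the others. Plcd1, a phospholipase C, was at 0.497 in clone K, while the others lay tightly together at 0.631 ± 0.0185 (SD, n = 5). Gnao1, the alpha subunit of the Go protein, was at 0.540 in clone K and 0.642 to 0.767 in the others. Fcho1, a factor of clathrin-coated pit formation, was at 0.410 in clone K and 0.531 to 0.629 in the others, and Naaa, an enzyme that breaks down fatty acid amides, was at 0.338 in clone K and 0.449 to 0.526 in the others.

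A model across all 21965 promoters compared clone K with the other 5 clones, taking the spread from those 5 and assuming that clone K varies like them. By limma 782 promoters had an unadjusted p under 0.05, a smaller share than chance alone would give at that limit. With Benjamini-Hochberg adjustment 5 promoters (0.0228%) had a limma adjusted p under 0.05, all higher in clone K. They were Cyp2c38, a cytochrome P450 gene at 0.212 in clone K, while clone I had 0.0400 and clones E, L, P and T had 0 (limma adjusted p = 0.0103), and Gm14351 (limma adjusted p = 0.0159). Gm5800, at 0.327 in clone K and 0.106 ± 0.0166 in the others (SD, n = 5), had a limma adjusted p of 0.0424. Prss1, a trypsinogen gene, and Ssxb9, of the SSX family of cancer-testis genes, had 0.0714 and 0.0667 in clone K, with the other clones at 0 (limma adjusted p = 0.0159 and 0.0183). The calls did not hold across settings: no promoter was called without a mean trend or without clone L or clone P. The range filter, which keeps promoters spanning at least 0.1, called 34, with 24 higher and 10 lower. Rasef, Clec4g and Vmn1r119 were not called (limma adjusted p = 0.989, 0.989 and 0.718).

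How often clone K was outermost depended on the methylation of the promoter. With no minimum gap, clone K was above all other clones at 4058 promoters (18.5%) and below all at 3143 (14.3%). Among 8509 promoters with a median under 0.2 in the other 5 clones, clone K was lowest at 2006 (23.6%) and highest at 973 (11.4%). Among 3216 promoters with a median of at least 0.8 it was highest at 960 (29.8%) and lowest at 89 (2.77%). The mean levels were 0.0805 in clone K and 0.0839 in the others for the low class, and 0.885 in clone K and 0.866 in the others for the high class. Clone K was the only one of the 6 clones that was lowest more often than highest in the low class and highest more often than lowest in the high class. Clones I and P were more often highest in both classes, clones L and T more often lowest in both, and clone E was more often highest in the low class (23.8%) and lowest in the high class (11.1%). The SD of levels over all promoters was 0.319 in clone K, against 0.309, 0.315, 0.295, 0.315 and 0.301 in clones E, I, L, P and T, with an exact permutation p of 0.333 (two-sided), where 6 choices of 1 clone allow no p under 0.167.

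**Figure D2:**
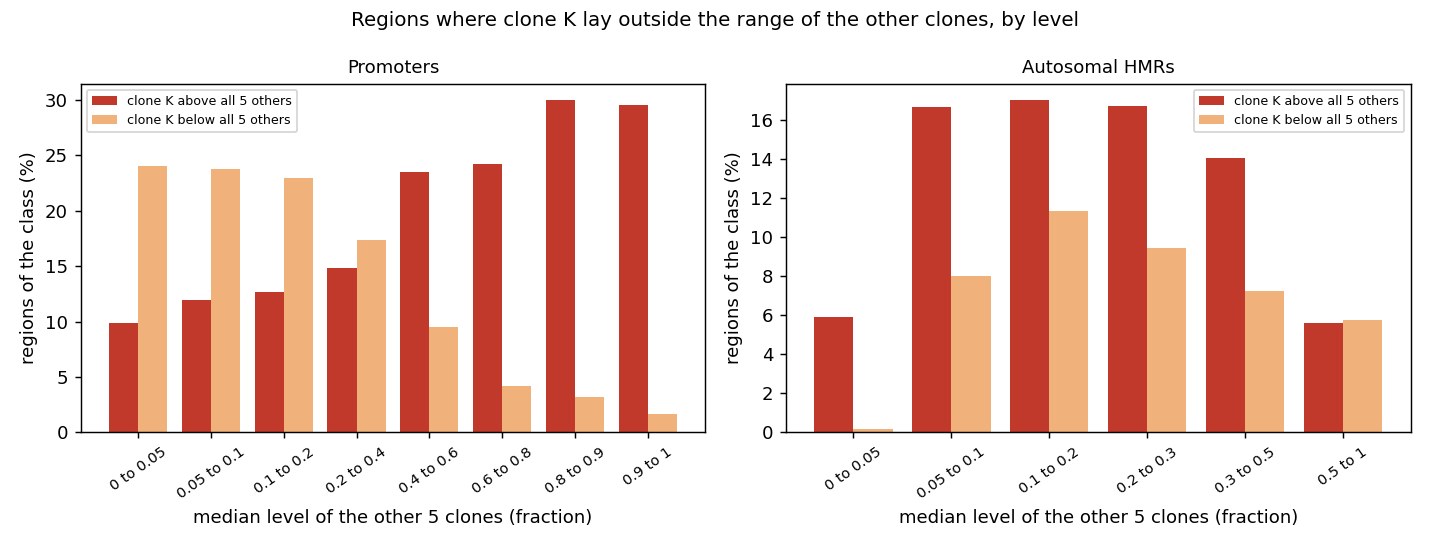
Share of promoters (left) and of autosomal HMRs (right) where clone K lay above (dark) or below (light) all 5 other clones, in %, against the median level of those 5 clones (fraction). The promoter share above grows from 9.84% in the lowest class to 29.6% in the highest, while the share below falls from 24.1% to 1.69%. For HMRs the share above is the larger one in every class but the highest, where 5.61% lie above and 5.78% below.

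Counts over gene families describe in which of them clone K was higher or lower, with no test. Over 20343 genes, clone K was higher than the mean of the others at 11167 and lower at 9171, with a median difference of 0.00371. In several families with methylated promoters clone K was mostly higher: 30 of 37 Hox genes, the body-plan transcription factors (median difference 0.0246), 47 of 58 clustered protocadherins, adhesion proteins of neurons (0.0262), and 103 of 130 other homeobox genes (0.0185). The same held for 37 of 50 germ-line genes (0.0168), 397 of 558 microRNA genes (0.0185), 35 of 47 keratins (0.0242) and 692 of 1086 olfactory receptor genes (0.0215). Clones L and T had the lowest mean in each of these families. Among these families clone K had the highest mean only for the clustered protocadherins and the microRNA genes. Outside them it was also the highest clone for 18 pluripotency genes (0.718) and 13 S100 genes (0.476). Clone I was higher for Hox genes (0.712 against 0.704 in clone K) and olfactory receptor genes (0.399 against 0.389), and clone P for keratins (0.643 against 0.639). In some other methylated families clone K was not mostly higher, with 10 higher and 19 lower of 29 killer-cell lectin receptor genes (-0.0291). It was higher at 18 and lower at 19 of 37 taste receptor genes, and higher at 17 and lower at 17 of 34 coagulation genes. Among 38 tumour suppressor genes it was higher at 17 and lower at 21. In several families with little promoter methylation clone K was more often lower, namely at 49 of 78 ribosomal protein genes (-0.00495) and 34 of 57 histone genes (-0.00686). It was also lower at 170 of 314 zinc finger genes of the Zfp series (-0.00327) and 15 of 25 housekeeping genes (-0.00568). Clone T had a lower mean than clone K in each of these families. Clone L did so in all but the histone genes (0.130 against 0.128 in clone K). For antigen presentation genes, with a mean level of 0.281 in clone K, it was higher at 24 and lower at 15 of 39. Of the DNA methylation machinery, the methyltransferases, demethylating enzymes and their partners, 11 of 19 genes were lower and 8 higher in clone K, and no promoter had a gap of 0.1.

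Markers of cell types gave no promoter that stood apart by 0.1. The mean promoter level of 38 epithelial genes was 0.312 in clone K and 0.297 ± 0.0252 in the others (SD, n = 5), and that of 30 mammary genes was 0.506 in clone K and 0.497 ± 0.0192 in the others. For 34 mesenchymal genes clone K was narrowly the highest clone, at 0.574 against 0.538 to 0.572, with 24 genes higher and 10 lower. For 26 leukocyte genes it was also the highest, at 0.662 against 0.571 to 0.659. It was not the highest for 14 fibroblast genes, at 0.724 against 0.737 in clone I and 0.732 in clone P. Nor was it for 26 endothelial genes, at 0.532 in clone K with clones E, I and P higher. Of the mammary promoters, clone K was above all other clones at 2 and below all at 3. The widest gap upward there was at Krt5, a basal keratin, at 0.742 in clone K and 0.573 to 0.653 in the others. The widest downward was at Areg, at 0.0405 in clone K and 0.0836 to 0.132 in the others. Of the mesenchymal genes, the widest gap upward was at Col3a1, a fibrillar collagen, at 0.635 in clone K and 0.414 to 0.555 in the others. The widest downward was at Pdgfra, a growth factor receptor of mesenchymal cells, at 0.443 in clone K and 0.530 to 0.637 in the others. Methylation levels alone give no expression, so no marker was read as present or absent. Serpine2 and Slpi, genes of protease inhibitors that the wider study followed, were at 0.309 and 0.600 in clone K, within the range of the other clones (0.229 to 0.611 and 0.579 to 0.690).

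Single members of other lists had wider gaps. Slco1b2, a hepatic uptake transporter of organic anions, was at 0.446 in clone K and 0.0732 to 0.257 in the others. Klrk1, the activating receptor of natural killer cells also known as NKG2D, was at 0.582 in clone K and 0.309 to 0.394 in the others. These are the levels of 1 of its 2 promoter rows, and the other row did not stand apart by 0.1. Serpinb1a, an inhibitor of neutrophil proteases, was at 0.571 in clone K and at 0.388 ± 0.0123 in the others (SD, n = 5), the narrowest spread among these. Krtap9-5, a hair keratin-associated protein, was at 0.960 in clone K and 0.333 to 0.778 in the others, and the bitter taste receptor gene Tas2r118 was at 0.773 in clone K and 0.459 to 0.621 in the others. Zfp605, of the zinc finger series, was at 0.763 in clone K and 0.520 to 0.609 in the others, and Pcdhb1 was at 0.782 in clone K and 0.529 to 0.643 in the others. Olfr507 went the other way, at 0.111 in clone K and 0.254 to 0.473 in the others.

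Mean promoter methylation was 0.402 in clone K against 0.394 ± 0.0190 in the others (SD, n = 5), with 3 clones higher (exact permutation p = 1.0, two-sided). Mean autosomal HMR methylation was 0.157 in clone K against 0.153 ± 0.0353 in the others (SD, n = 5), also with 3 clones higher (exact permutation p = 1.0, two-sided). Both differences were smaller than the spread of the other clones, and the HMR difference of 0.00458 was -0.00591 without clone L and -0.00298 without clone T. Over promoters, clone P was the clone most like clone K, with a mean absolute difference of 0.0392, the smallest of the 15 pairs. Over autosomal HMRs the difference between clones K and P was 0.0658, second smallest after that between clones L and T.

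**Figure D3:**
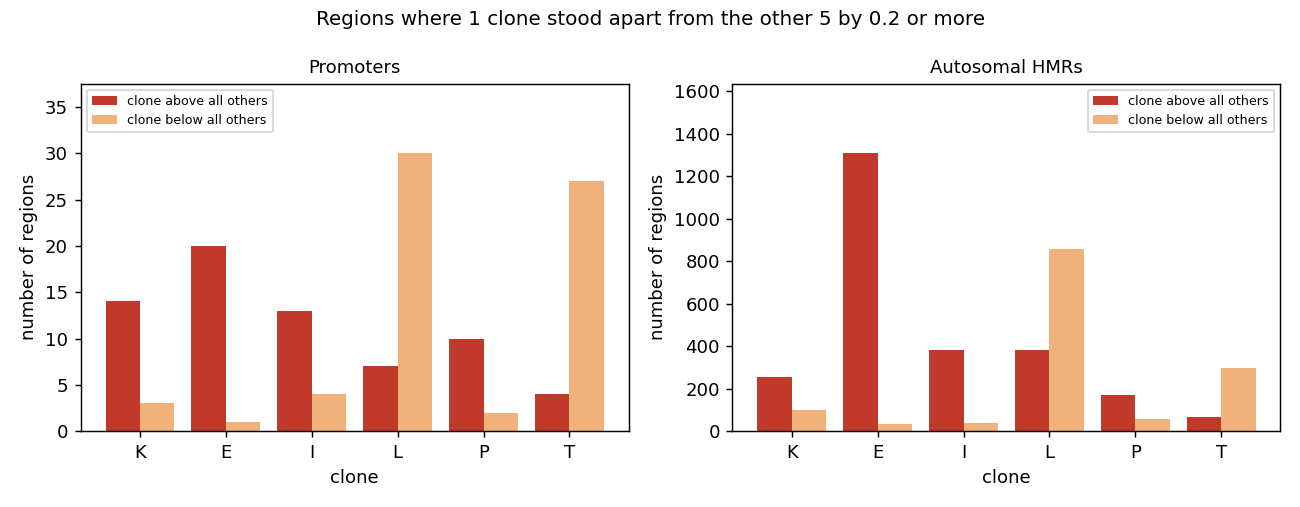
Number of promoters (left) and autosomal HMRs (right) where 1 clone lay above (dark) or below (light) the other 5 by at least 0.2, for each clone. Clone K, with 14 and 3 promoters and 256 and 98 HMRs, is not the outermost clone in any of the 4 counts; clone E leads both upward counts (20 and 1309) and clone L both downward counts (30 and 859).

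Without a minimum gap, clone K was above all other clones at 12437 autosomal HMRs (12.8%) and below all at 6256 (6.43%). The 256 HMRs that stood apart above were at a median level of 0.5 in clone K, against a median of 0.157 for the mean of the others, and 17 of them were at 0 in all 5 other clones. The 98 below were at a median of 0 in clone K, against 0.363 in the others, and clone K was at exactly 0 in 77 of them (78.6%). Their median lengths, 3343 and 3359 bp, were shorter than that of all autosomal HMRs, 4974 bp. Chromosomes 5 and 7 held 22 and 25 of the 98 (22.4% and 25.5%), against 6.86% and 7.10% of all autosomal HMRs. In clones E, I, L, P and T, chromosome 5 held 0 to 4.19% and chromosome 7 held 3.51% to 15.6% of the HMRs that stood below. Upward, chromosome 7 held 43 of the 256 (16.8%) and chromosome 5 held 20 (7.81%). Whether a 0 was an unmethylated region or one without an estimate cannot be told from the table.

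Positions are given as deposited. The labels name the build mm10, but chromosome 7 carries HMRs up to 152486790 while the last gene of GRCm38.p6 (mm10) there ends at 145324059, so the build was not established and no HMR was assigned to a gene, exon or intron. The widest gap upward among HMRs of at least 1 kb was at chr7:102657143-102663200, at 0.727 in clone K against 0.333, 0.2, 0.167, 0.333 and 0.0714 in clones E, I, L, P and T. On the same chromosome chr7:133163675-133165682 was at 0.571 in clone K and at 0 to 0.188 in the others. On chromosome 5 chr5:62515701-62523051 was at 0.5 in clone K and at 0 to 0.125 in the others. Clone K was thus intermediate where the other clones were low. The clearest contrasts with 0 were at chr4:49774763-49780997 and chr7:66208189-66210158, at 0.364 and 0.357 in clone K and at 0 in all other clones. A gap of 0.350 was shared by 4 regions, at chr5:103784805-103785806, chr9:54489507-54492211, chr12:20588841-20591919 and chr15:25370474-25371644, with 0.600, 0.550, 0.600 and 0.750 in clone K and highest other levels of 0.250, 0.2, 0.250 and 0.4. Without clone P, the gap at chr12:20588841-20591919 was 0.6.

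Downward the widest gap, 0.4, was at chr18:15221823-15223457, at 0 in clone K against 0.636, 0.4, 0.5, 0.5 and 0.444 in clones E, I, L, P and T. At chr5:30688167-30690215 clone K was at 0.0625, against 0.595, 0.5, 0.451, 0.550 and 0.5 in clones E, I, L, P and T (0.519 ± 0.0549, SD, n = 5). The other clones were therefore close to each other, and clone K was the one with almost no methylation. At chr5:41193071-41198235 clone K was at 0 and the others at 0.325 to 0.5. At chr7:119007414-119009411 clone K was at 0.0625 and the others at 0.379 to 0.532. At chr7:75079525-75081781 clone K was at 0 and the others between 0.318 and 0.875, and without clone P the gap of 0.318 was 0.545. The sixth region, chr18:32211202-32213478, was at 0 in clone K and at 0.333 to 0.632 in the others.

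Over 2202 windows of 1 Mb with at least 10 HMRs, the mean level of clone K was above all other clones in 218 and below all in 87. Of the 87, 30 were on chromosome 7 and 17 on chromosome 5, which held 7.10% and 6.86% of all autosomal HMRs. The share of windows on these chromosomes and the counts for other clones were not worked out. The widest upward window, at 8 to 9 Mb of chromosome 15, had a mean of 0.283 in clone K, against 0.226, 0.225, 0.116, 0.187 and 0.153 in clones E, I, L, P and T over 27 HMRs. The widest downward window, at 85 to 86 Mb of chromosome 16, had a mean of 0.0502 in clone K, against 0.261, 0.233, 0.172, 0.176 and 0.120 in clones E, I, L, P and T over 13 HMRs. Next downward were windows at 75 to 76 Mb of chromosome 8 (0.199 in clone K, 0.236 to 0.395 in the others), at 68 to 69 Mb of chromosome 18 (0.0829 in clone K, 0.117 to 0.165 in the others) and at 47 to 48 Mb of chromosome 7 (0.0881 in clone K, 0.121 to 0.164 in the others).

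By limma across the 97247 autosomal HMRs, 322 (0.331%) had an adjusted p under 0.05, all higher in clone K, and 3653 had an unadjusted p under 0.05. The 3653 are again a smaller share than chance alone would give at that limit. Of the 322, 302 were the HMRs at exactly 0 in all 5 other clones and above 0 in clone K, where the other clones give no spread. Their median level in clone K was 0.0769. When HMRs at 0 in any clone were left out, or the clones were centred on their medians, no HMR was called. In these settings 1536 of 50136 and 4596 of 97247 HMRs had an unadjusted limma p under 0.05. The HMRs chr4:49774763-49780997 and chr7:66208189-66210158 were among the called (limma adjusted p = 4.01e-05 and 3.43e-05), and chr5:30688167-30690215 was not (limma adjusted p = 0.282).

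Clone K had the largest share of autosomal HMRs at exactly 0. The share was 34.8% in clone K, against 24.8%, 30.7%, 29.8%, 32.04% and 34.0% in clones E, I, L, P and T. The difference from the mean of the others, 4.53 points, gave an exact permutation p of 0.333 (two-sided). Of the 33857 HMRs at 0 in clone K, 2624 were at 0 in clone K alone, a number close to the 2676 of clone T and above the 401 to 1548 of the other 4 clones. Where clone K alone was at 0, the mean of the other clones had a median of 0.143. HMRs above 0 in clone K alone were few, 302, the lowest number of the 6 clones. Despite the zeros, the mean over the levels above 0 was 0.241 in clone K, lower only than in clones E and I. At promoters an exact 0 was rare, at 0.596% in clone K and 0.310% to 0.478% in the others.

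The zeros of clone K were gathered on certain chromosomes. On chromosome 5, 38.5% of 6672 HMRs were at 0 in clone K, against 20.1%, 25.5%, 24.3%, 25.9% and 30.1% in clones E, I, L, P and T. On chromosome 7, 57.4% of 6906 were at 0 in clone K, against 35%, 41.2%, 42.2%, 43.2% and 51.5% in clones E, I, L, P and T. Clone K thus led by 8.33 and 5.85 points on these chromosomes, by 4.43 points on chromosome 9 and by 3.81 points on chromosome 8. It also led on chromosomes 4 and 14, by 0.526 and 2.19 points, and on the other 13 autosomes another clone was highest. Clone T led on 9 autosomes, with leads over 5 points on 2 of them. Without chromosomes 5 and 7 the share was 32.7% in clone K, against 32.9% in clone T, so the first place of clone K over all autosomes rested on those chromosomes. On the X chromosome 82.8% of 4301 HMRs were at 0 in clone K, against 44.7%, 63.5%, 69.0%, 69.5% and 70.3% in clones E, I, L, P and T. Copy numbers of the chromosomes were not analysed here, and their part in these shares was not tested.

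**Figure D4:**
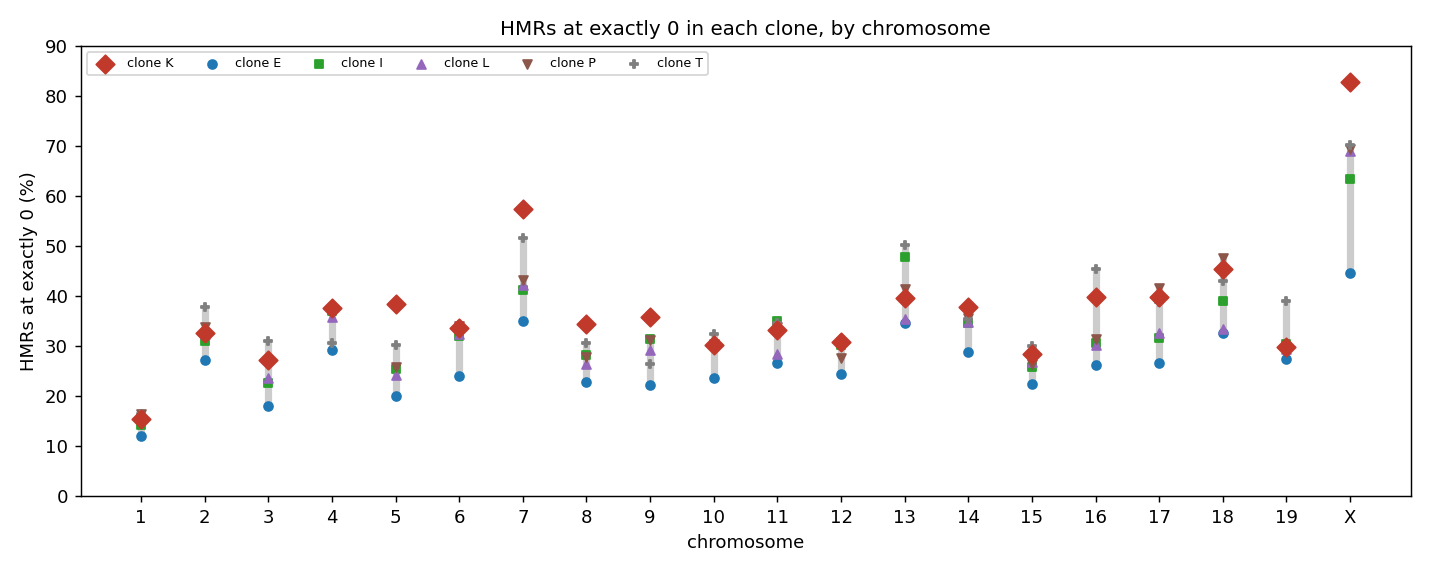
Percentage of HMRs at exactly 0 (y axis) in each clone, for each autosome and the X chromosome (x axis). Diamonds are clone K, other symbols the other 5 clones, and the grey bar spans those 5. Clone K stands clear of the bar on chromosomes 5 (38.5% against at most 30.1%), 7 (57.4% against at most 51.5%), 8, 9 and X (82.8% against at most 70.3%).

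Within chromosome 5 the lead of clone K differed along the chromosome. Each chromosome was divided into 5 Mb stretches, of which those with at least 20 HMRs were used, and in all 19 stretches from 5 to 100 Mb of chromosome 5 clone K had the highest share at 0, with a median lead of 13.4 points and a range of 1.47 to 21.1. In the 11 stretches from 100 Mb onward it was highest in 5, with a median difference of -0.266 points from the highest other clone. On chromosome 7 clone K was highest in 27 of 30 stretches, on chromosome 8 in 22 of 26 and on chromosome 9 in 19 of 25. Over all 498 stretches it was highest in 152, against 160 for clone T. Stretches with a lead of at least 10 points numbered 20 in clone K, 14 of them on chromosome 5, against 8 in clone T and 1 in clone L. In the stretch from 0 to 5 Mb the difference of clone K from clone E, the highest there, was -4.17 points, and the boundaries at 5 and 100 Mb were chosen after the values were seen. Promoters on chromosome 5 did not stand apart in like number, with 4 of 1234 above and 1 below by 0.1.

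**Figure D5:**
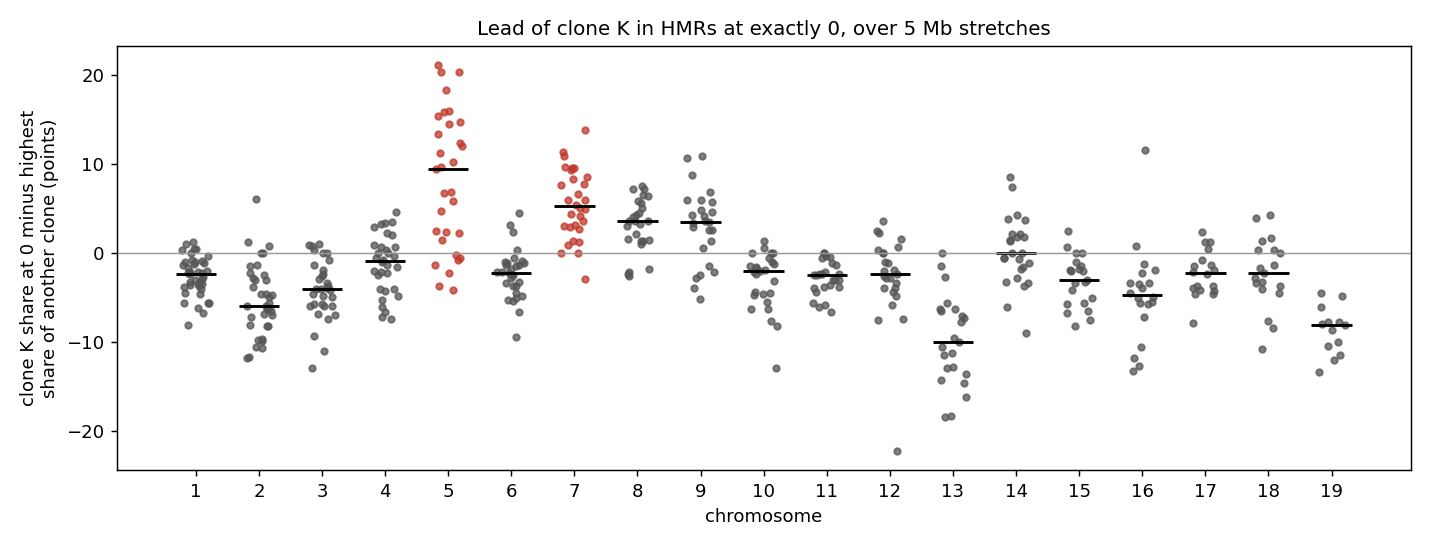
Share of HMRs at exactly 0 in clone K minus the highest share in another clone (points, y axis), 1 dot per 5 Mb stretch, by autosome (x axis). Black bars are medians, and chromosomes 5 and 7 are in red. The medians of 9.45 points on chromosome 5 and 5.25 on chromosome 7 are the 2 highest, and chromosome 13, at -10.0, is the lowest.

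Against the mean of the other clones, the excess of zeros in clone K was larger in long HMRs, though clone T came nearest to clone K there. In HMRs of 1 to 2 kb 62.4% were at 0 in clone K, against 55.0% to 62.9% in the others, where clones I and T were higher. In HMRs of 10 to 20 kb the share was 32.1% in clone K, against 15.3% (clone E) to 29.7% (clone T) in the others. Clone K exceeded the mean of the others by 3.07 points under 1 kb, by 2.06 points at 1 to 2 kb and by 7.64 points at 10 to 20 kb. Above 20 kb the excess was 7.87 points, with 39.5% at 0 in clone K, against 20.1% (clone E) to 38.7% (clone T) in the others. Mean levels in the 10 to 20 kb class were 0.137 in clone K, against 0.189, 0.161, 0.0904, 0.145 and 0.104 in clones E, I, L, P and T, within the range of the other clones.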

How the data were processed

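DNA methylation was measured by bisulfite sequencing, per the labels' protocols, which name 76 nt paired-end reads. The authors deposited fractions from 0 to 1, 1 per clone and region, and the sources used here do not state how the rounds were combined, the aligner, the HMR caller, the promoter boundaries or how levels were averaged. Per the submitters' processing notes bedtools, DESeq and mm10 were named, with no role stated. Of 22110 promoter rows, 145 repeats of a gene with the same 6 levels were counted once, and 249 promoters share their levels with another gene, so that such genes cannot be told apart. Chromosomes came from RefSeq names (18885 of 20343 genes matched by symbol, 1360 by synonym, 98 not at all).

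Gaps were rounded to 6 decimals. Clone K was compared with the other 5 clones by limma 3.58.1 in R 4.3.3 (mean trend, Benjamini-Hochberg adjustment, adjusted p under 0.05), and by exact permutation over 6 choices of 1 clone, where the smallest p is 0.167. Python 3.11.15, pandas 2.3.3 and NumPy 2.4.6 were used. Both steps were run on simulated levels with 200 regions changed by 0.1, 0.2 or 0.4. The promoter step recovered 0%, 22% and 79% of the changed promoters, with 0, 3 and 7 false calls. The HMR step recovered 0%, 0% and 1.5% of the changed regions, with 64, 64 and 66 false calls. Nearly all calls of the HMR step were therefore regions that had not been changed. The p-values measure the spread between clones only. Members, gene lists and alternatives were chosen with earlier results of these data known. By rule the text named, in each direction, the 12 promoters with the largest gap, members of 41 gene lists with a gap of at least 0.2 or the largest of their list where at least 0.1, the 6 HMRs of at least 1 kb with the largest gap (ties included) and the 4 leading 1 Mb windows, of which some are given by count and 1 promoter is not reported here. Promoters that limma called, other genes of chromosome 7, those with 8 or more CpG and the markers Krt5, Areg, Col3a1 and Pdgfra were named after their values were seen. Left out were HMRs outside the autosomes, except where the X chromosome is named.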

Additional observations from a re-analysis of the deposited data

Results flagged for a closer look

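Dixon's test was applied to 74 sets of 4 or 5 clones: the non-intravasating clones for 4 summary values, and the other 5 clones at the regions named above. Nearly all sets are regions picked by these same levels, so the usual chance rate of about 1 in 20 need not hold. Where all 5 other clones were at 0, as at Prss1 and Ssxb9, none could be marked. With 4 of the 5 at 0, any level above 0 is marked. A single clone among the 5 stood far from the rest in 11 of the 74 sets. Clone I did so at Gm14351 (0.250 against 0 in clones E, L, P and T), Cyp2c38 (0.0400 against 0), Vmn1r119 (0.385) and Vmn1r46 (0.469), and at the last pair it was the clone farthest from clone K. Clone L did so at Mir344-2 (0.261), clone E at Adm (0.596), and clone T at Pcdhb1 (0.529) and Plcd1 (0.664). Among HMRs it was clone P at chr5:103784805-103785806 (0.0714) and chr12:20588841-20591919 (0.250), and clone T at chr15:25370474-25371644 (0.182). Clone K did not stand out among the non-intravasating clones in mean level or in share at 0, over promoters or autosomal HMRs.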

How the results depend on the processing

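No paired analysis was possible because the rounds that share a number across clones had no separate values. A gap of 0.1 gave 139 promoters above and 39 below and 2148 autosomal HMRs above and 977 below, and a gap of 0.3 gave 4, 0, 39 and 19. Autosomal genes alone left 9 promoters above, centring gave 5 below, and HMRs above 0 in all 6 clones left 161 above and 21 below, a count that removes every HMR at 0 in clone K. Without chromosomes 5 and 7, chosen after seeing the data, 51 HMRs stood below. Leaving out 1 clone can widen a gap but never narrow it, so the counts of regions standing apart could not fall. It gave 14 to 27 promoters above, most without clone P (27) and clone E (25), and 5 to 12 below, most without clone L. It gave 300 to 493 HMRs above, with 493, 425 and 393 without clones E, P and I, and 111 to 317 below, with 317 and 183 without clones L and T. By limma the 5 called promoters became 2 on a logit scale, 0 without a mean trend, 1 after centring, 34 with a range of at least 0.1 (fewer promoters tested), 0 with promoters above 0 in all 6 clones (added after seeing the data) and 0 to 3 without 1 clone. The 322 called HMRs became 0 after centring, with a range of at least 0.1, or above 0 in all 6 clones, and 406 to 629 without 1 clone. The HMR mean difference ran from -0.00591 to 0.0151 without 1 clone and changed sign without clones L and T. The promoter mean difference and the difference in share at 0 kept their sign in all settings run, at 0.00227 to 0.0128 and 3.17 to 5.46 points without 1 clone, and the difference in share at 0 was 2.98 points without chromosomes 5 and 7 and 19.4 points on the X chromosome. Of 70 gaps, taken at the regions of Dixon's test, 60 moved by no more than 1 SD of the other clones after centring. When 1 clone was left out 67 to 70 did so. Leaving out a clone changes a gap only where that clone was the nearest, so the last counts are no measure of robustness. Where settings changed a value, the cause was not tested unless stated. With levels alone, depth is unknown and coverage minimums could not be applied.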
